A study of Rattus norvegicus with 4 samples.

Results

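Long-range cis contacts, contacts between places more than 2 Mb apart on the same chromosome, were examined in primary Schwann cells of the rat. All pairs of 100 kb bins on the 20 numbered chromosomes whose starts lay over 2 Mb apart were taken, 20286002 of 20831960 cis pairs (97.4%), and 11602766 of them (57.2%) held at least 1 contact. The cells came from sciatic nerve and were cultured with forskolin and heregulin. Lenti-GFP cells (2 libraries) carried the backbone lentivirus with GFP, and Lenti-AS cells (2 libraries) carried a lentivirus that overexpresses Egr2-AS-RNA, an antisense RNA of the promoter of Egr2, a transcription factor of myelinating Schwann cells. The paper describes a DsRed vector for the antisense RNA and an AcGFP plasmid for the control, so the groups also differ in vector. Both groups had been infected for 48 h at 2 UFC per cell, so every comparison is between infected cells. Each library was made from 2000000 cells with the Arima-HiC kit, and the labels call each sample independent. They do not say whether samples came from separate cultures or animals, so p-values measure only the spread between these libraries, which may be technical. The labelled cell type could not be checked against marker genes, since Hi-C counts hold no expression. The question was whether the antisense RNA goes with a different arrangement of whole chromosomes.

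Hi-C ligates DNA ends that lie close together in the nucleus, and each sequenced pair counts as 1 contact. Contacts within a chromosome become rarer with distance as a polymer chain folds back on itself less often, and the steepness of that decay describes how tightly the chromosome is packed. At distances beyond those of loops and domains the remaining pattern is mostly that of compartments, in which active and inactive chromatin each contact their own kind. Ligation of ends that were not close, and bins placed wrongly in a genome assembly, also give contacts at any distance.

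The 4 libraries together held 53801338 cis contacts over 2 Mb, 14705026 and 17224584 in Lenti-GFP and 11212973 and 10658755 in Lenti-AS. These were 18.4% and 18.5% of the cis contacts of the numbered chromosomes in Lenti-GFP and 17.9% and 18.0% in Lenti-AS. The lower share of Lenti-GFP was thus above the higher share of Lenti-AS. The group means were 18.4% ± 0.0881 and 17.96% ± 0.116 (SD, 2 libraries each), and the two-sided exact permutation test gave p = 0.333, which no split of 4 libraries into pairs can go below. Counting error alone was small, with a 95% Wilson interval from 18.03% to 18.05% for Lenti-AS replicate 2, the shallowest library. The shares of cis contacts that lay within 1 bin of 10 kb were 18.8%, 18.9%, 20.0% and 19.5% in the same order, higher in both Lenti-AS libraries, and their part in the result was not tested.

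Contacts were very unevenly spread over distance. Pairs 2 to 5 Mb apart were 3.77% of the pairs and held 22.1% of the long-range contacts, while pairs over 100 Mb apart were 21.3% of the pairs and held 3.01% of the contacts. In Lenti-GFP the mean number of contacts per possible pair of usable bins, per 1000000 cis contacts, was 0.0596 ± 0.000273 at 2 to 5 Mb, 0.0235 ± 0.0000977 at 5 to 10 Mb, and 0.0153 ± 0.00006 at 10 to 20 Mb (SD, n = 2). It was 0.0107 ± 0.0000474 at 20 to 50 Mb, 0.00493 ± 0.0000215 at 50 to 100 Mb and 0.00146 ± 0.00000734 beyond 100 Mb. Even the farthest class stayed above the trans level, the contacts per possible pair of bins on different chromosomes. In Lenti-GFP a cis pair held 123 times the trans level at 2 to 5 Mb, 22.2 times at 20 to 50 Mb and 2.95 times beyond 100 Mb.

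**Figure D1:**
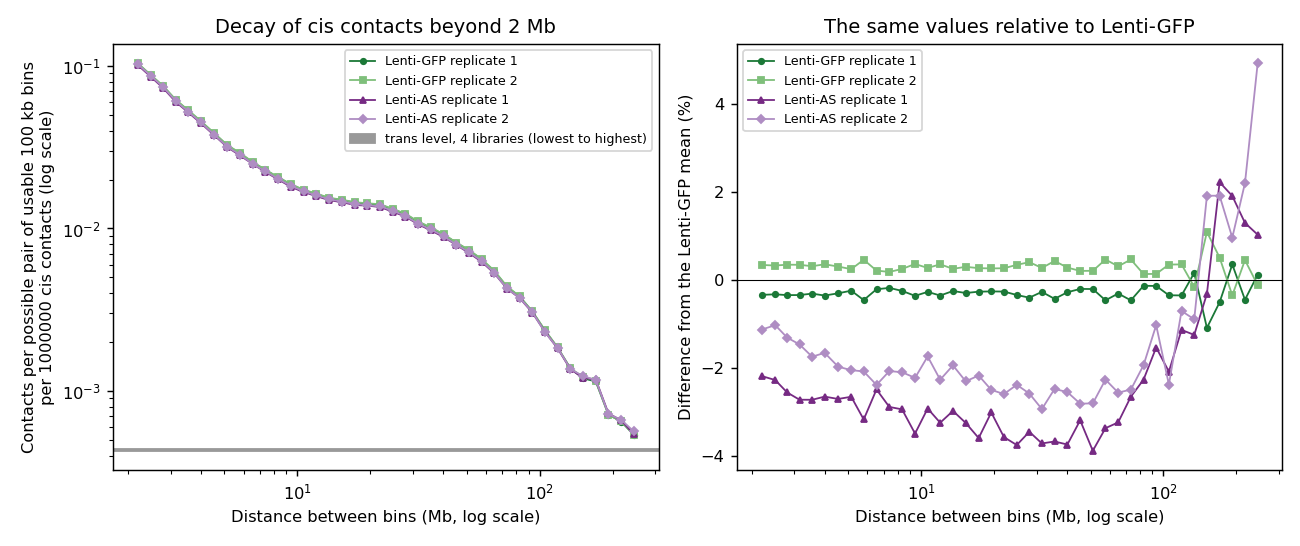
Left, contacts per possible pair of usable 100 kb bins per 1000000 cis contacts (log scale) against distance in Mb (log scale) for the 4 libraries, with the trans level as a grey band. Right, the same values as a difference in percent from the mean of the Lenti-GFP libraries. All curves flatten between 10 and 20 Mb, and the Lenti-AS curves are the lower pair up to the window at 134 Mb and the upper pair from the window at 170.5 Mb on. Only chromosomes 1 to 5 are longer than 170.5 Mb, and only chromosomes 1 and 2 are longer than 184.3 Mb.

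Over windows of distance both Lenti-AS libraries were below both Lenti-GFP libraries up to 134 Mb, overlapped them at 151 Mb and were above them from 170.5 Mb to the last window at 245 Mb. Only chromosomes 1 to 5 are longer than 170.5 Mb, and only chromosomes 1 and 2 are longer than the 184.3 Mb of chromosome 4. The windows and the slopes by class below sum the chromosomes, and neither was split by chromosome. The decay did not follow a single power of distance. The slope of log10 contacts on log10 distance was -1.37 at 2 to 5 Mb and -0.91 at 5 to 10 Mb in Lenti-GFP, and it was flattest at 10 to 20 Mb, at -0.33. It steepened again to -0.75 at 20 to 50 Mb, -1.51 at 50 to 100 Mb and -1.70 beyond 100 Mb. The slope beyond 100 Mb was -1.698 and -1.697 in Lenti-GFP against -1.645 and -1.624 in Lenti-AS, so the decay there was shallower in both Lenti-AS libraries (difference 0.0627, n = 2, exact permutation p = 0.333). At 50 to 100 Mb the difference was 0.0296 in the same direction, and at 2 to 5 Mb it was -0.0104, with the groups apart in both classes (exact permutation p = 0.333 for each). At 20 to 50 Mb the groups overlapped, with a difference of -0.0000507 (exact permutation p = 1).

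Over usable bins, both Lenti-AS libraries held fewer contacts per possible pair, per 1000000 cis contacts, than both Lenti-GFP libraries in all 6 distance classes. The gap was widest at 20 to 50 Mb, where the values were 0.0107 and 0.0108 in Lenti-GFP and 0.01035 and 0.01045 in Lenti-AS, a difference of the means of -3.11%. It was smallest beyond 100 Mb, with 0.001451 and 0.001462 in Lenti-GFP and 0.001444 and 0.00145 in Lenti-AS, a difference of -0.62%. Chromosome 1 held 1669878 and chromosome 2 held 1385280 of the 4319158 possible pairs of that class. Against their own cis contacts they differed by -0.064% and 1.69% between the groups. In the test by chromosome below, 8 of the 13 chromosomes with such pairs were called lower. Over all bins the groups overlapped beyond 100 Mb, where contacts were 0.547% and 0.552% of cis contacts in Lenti-GFP against 0.547% and 0.548% in Lenti-AS (difference -0.376%, exact permutation p = 0.667). The classes between 2 and 20 Mb and from 50 to 100 Mb differed by -1.99%, -2.56%, -2.66% and -2.61% (exact permutation p = 0.333 in all 6 classes, n = 2 per group). Set against the trans level of the same library the gap was larger: at 20 to 50 Mb the ratio of cis to trans contacts per pair was 22.2 in both Lenti-GFP libraries, against 20.9 and 21.2 in Lenti-AS (difference -5.28%, exact permutation p = 0.333).

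These differences depended on what the contacts were divided by. Per 1000000 cis contacts over 20 kb apart, which leaves out contacts within 1 bin and between neighbouring bins, the class at 20 to 50 Mb differed by -1.88% and that beyond 100 Mb by 0.639%, with the sign turned. Within the long-range contacts alone the profile itself differed: pairs at 2 to 5 Mb were higher in Lenti-AS by 0.54% and pairs beyond 100 Mb by 1.95%, while pairs at 10 to 20 and 20 to 50 Mb differed by -0.15% and -0.61% (exact permutation p = 0.333 for each, groups apart). The groups overlapped at 5 to 10 Mb, with a difference of -0.051%, and at 50 to 100 Mb, with -0.10% (exact permutation p = 0.667 and 1), so the gaps of -2.56% and -2.61% were not seen under that scaling. Without the pairs of outstanding contact described below, the difference per cis contacts at 2 to 5 Mb was -2.43% and that beyond 100 Mb was -0.95%.

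**Figure D2:**
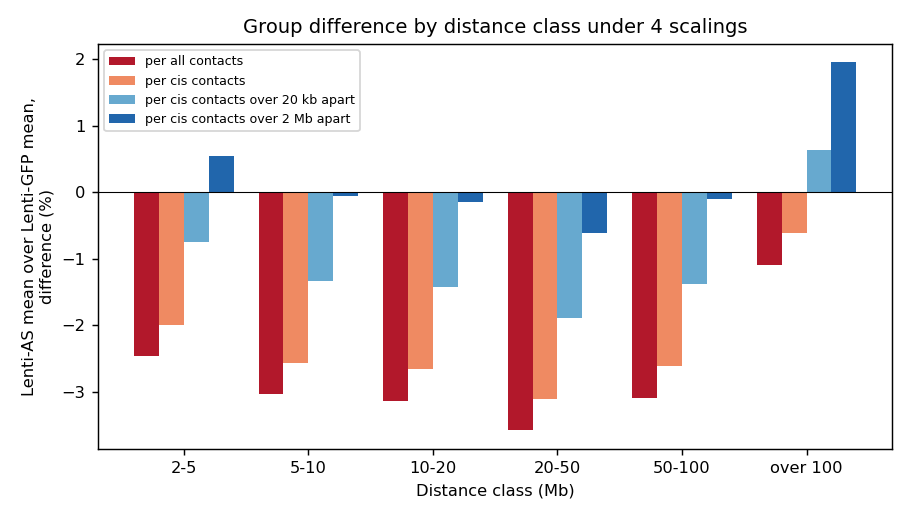
Difference of the Lenti-AS mean from the Lenti-GFP mean in percent (2 libraries each) for the 6 distance classes in Mb, with contacts per possible pair divided by all contacts, by cis contacts, by cis contacts over 20 kb apart or by cis contacts over 2 Mb apart. The bar at 20 to 50 Mb is the most negative under each scaling, and the bar beyond 100 Mb is positive under the last 2.

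The distance profile was then tested on each chromosome with edgeR, against the cis contacts of that chromosome. Of 113 chromosome and distance class counts, 98 passed at an adjusted p of 0.05 (86.7%). In Lenti-AS 97 of them were lower (85.8% of those tested) and 1 was higher (0.885%). In the class from 20 to 50 Mb all 20 chromosomes were lower, with log2 fold changes from -0.11 to -0.029. The lowest p-values belonged to chromosomes 12, 10 and 17. On chromosome 12 contacts 20 to 50 Mb apart were 4.04% of cis contacts in both Lenti-GFP libraries, against 3.72% and 3.78% in Lenti-AS (log2 fold change -0.11, edgeR adjusted p = 1.2e-16). On chromosome 10 the same class held 4.83% and 4.83% against 4.52% and 4.57% (log2 fold change -0.09, edgeR adjusted p = 3.94e-14), and on chromosome 17 the class from 50 to 100 Mb held 0.956% and 0.961% against 0.894% and 0.895% (log2 fold change -0.10, edgeR adjusted p = 2.32e-12). With TMM scaling the count of chromosome 17 had a log2 fold change of -0.042 and did not pass (edgeR adjusted p = 0.0989), while those of chromosomes 12 and 10 did (edgeR adjusted p = 0.000508 and 0.000584). The single higher count was that of chromosome 2 beyond 100 Mb, with 1.68% and 1.70% against 1.73% and 1.72% (log2 fold change 0.024, edgeR adjusted p = 0.0212). In that class 8 of 13 chromosomes were called lower. The median log2 fold change over the 13 was -0.0487, the lowest median of any class. Counts of 1 library share its distance profile and are not independent, and TMM scaling, which centres the table, gave 44 calls, 23 higher and 21 lower. Without Lenti-GFP replicate 2 there were 43 calls and without Lenti-AS replicate 1 there were 65.

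Slopes from 2 to 50 Mb differed far more between chromosomes than between groups. Chromosome 17 (-0.94 over the 4 libraries) and chromosome 19 (-0.90) were steepest, and chromosome 12 (-0.49) and chromosome 10 (-0.66) were shallowest. Averaged over 20 chromosomes the slope was -0.7601 and -0.7602 in Lenti-GFP and -0.7648 and -0.7653 in Lenti-AS, steeper in both Lenti-AS libraries (difference -0.00492, n = 2, exact permutation p = 0.333). With limma 10 of 20 chromosomes (50%) passed an adjusted p of 0.05, all steeper in Lenti-AS, and 0 were shallower. The largest difference was on chromosome 10, with slopes of -0.654 and -0.658 in Lenti-GFP and -0.668 and -0.669 in Lenti-AS (difference -0.0120, SE 0.00161, limma adjusted p = 0.00151). Chromosome 20 came next, with -0.853 and -0.858 against -0.861 and -0.874 (difference -0.0117, SE 0.00403, limma adjusted p = 0.0450), and there the Lenti-AS libraries lay farther apart than the groups' nearest libraries. Without Lenti-AS replicate 2 that difference was -0.00495 (limma adjusted p = 0.0642), and with the replicate number as a block it did not pass (limma adjusted p = 0.110). Chromosome 17, with a difference of -0.0111, also passed (limma adjusted p = 0.00151), but not over 5 to 50 Mb (difference -0.00772, limma adjusted p = 0.0738). The shallowest, chromosome 12, differed by -0.00848 (limma adjusted p = 0.00808) and did not pass without Lenti-GFP replicate 2 or with windows weighted by contacts (limma adjusted p = 0.127 and 0.0707). Leaving out Lenti-GFP replicate 1 left 5 calls and leaving out Lenti-GFP replicate 2 left 4.

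**Figure D3:**
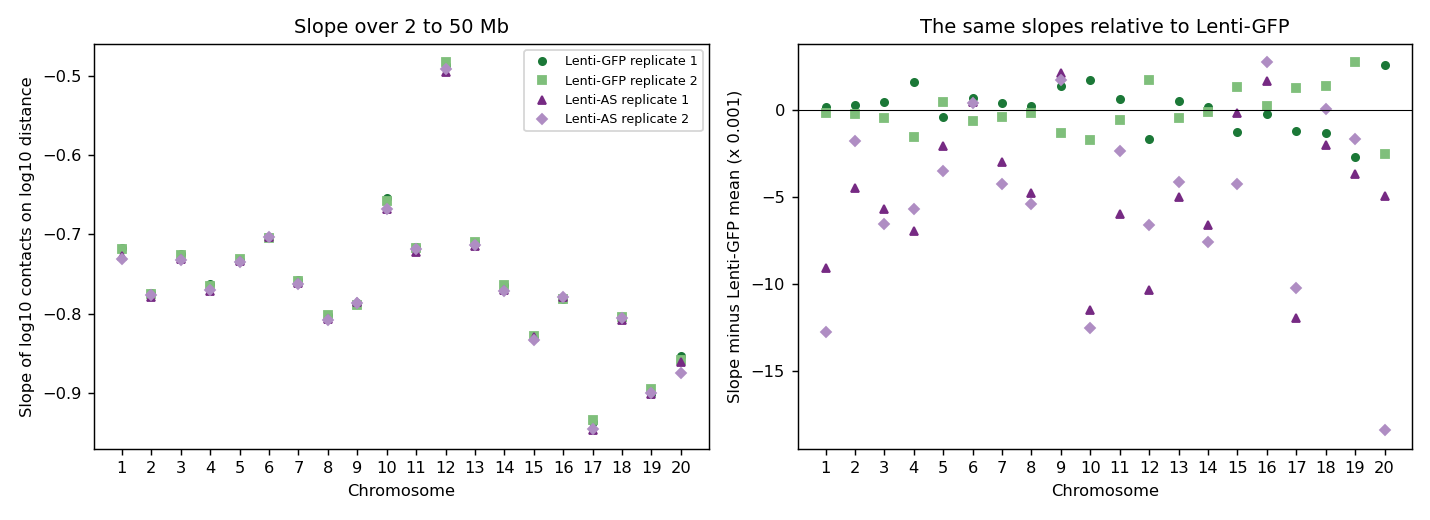
Left, slope of log10 contacts per possible pair on log10 distance over 2 to 50 Mb for each chromosome and library. Right, the same slopes minus the mean of the Lenti-GFP libraries, in units of 0.001. Chromosome 12 is shallowest and chromosome 17 steepest in all 4 libraries, and the Lenti-AS points lie below the Lenti-GFP points on most chromosomes.

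Which regions changed was asked of pairs of 1 Mb bins at least 3 Mb apart, each compared with the contacts of its library at the same distance. Of 151853 pairs tested, edgeR called 100 (0.0659%) at an adjusted p of 0.05. Lenti-AS was higher in 27 (0.0178%) and lower in 73 (0.0481%). DESeq2 called 0, with a lowest adjusted p of 0.126 and 815 pairs at an unadjusted p under 0.05, against 11973 in edgeR. Without Lenti-GFP replicate 1, Lenti-AS replicate 1 or Lenti-AS replicate 2 the edgeR count was 22, 37 or 19. The share called fell with distance and depth, from 0.757% at 2 to 5 Mb, where the median pair had a mean of 233.5 contacts, to 0.00798% beyond 100 Mb, where it had 15.5.

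Most of the lower pairs lay near the far ends of chromosomes. Both bins were in the last 30 Mb of the chromosome in 52 of the 73 lower pairs (71.2%) and in 1 of the 27 higher pairs, against 4.80% of the pairs tested. That last share is over all distances, while bins that both lie in the last 30 Mb are always under 30 Mb apart. At 2 to 5 Mb lay 41 of the lower and 16 of the higher pairs, and no share at like distances was computed. Chromosome 12 ends at 52716770, so its last 30 Mb is a large part of it. Chromosomes 5, 3 and 12 held 45 of the 73, and they had 12114, 11969 and 1190 of the 151853 pairs tested. Both the count at the ends and the 3 stretches below were picked with the calls already known, so they are a description without a test.

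On chromosome 5, from 131000001 to the end at 173707219, 18 of 795 pairs were lower and 0 higher. The summed contacts of these 795 pairs were 0.958 and 0.915 of the expected in Lenti-GFP and 0.850 and 0.829 in Lenti-AS. The pair with the lowest p joined 161000001 to 162000000 with 168000001 to 169000000, with 714 and 798 contacts in Lenti-GFP and 376 and 355 in Lenti-AS, or 638 ± 20.8 and 449 ± 0.709 scaled to equal depth at that distance (SD over 2 libraries, log2 fold change -0.50, edgeR adjusted p = 3.34e-08).

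On chromosome 3, from 165000001 to the end at 177699992, 15 of 55 pairs were lower (27.3%). Observed over expected was 1.67 and 1.63 in Lenti-GFP and 1.42 and 1.38 in Lenti-AS. On chromosome 12, from 31000001 to the end at 52716770, 10 of 177 pairs were lower, with 1.04 and 0.981 in Lenti-GFP against 0.897 and 0.860 in Lenti-AS. Both Lenti-AS libraries were below both Lenti-GFP libraries in all 3 stretches, which were picked on their lower pairs. The median log2 fold change over all pairs of a stretch was -0.13 on chromosome 5, -0.23 on chromosome 3 and -0.17 on chromosome 12, against 0.00092 over all pairs tested. The leading pair of chromosome 12, 33000001 to 34000000 with 36000001 to 37000000, had 1912 and 2233 contacts against 1191 and 1070 (log2 fold change -0.34, edgeR adjusted p = 3.34e-08). The leading pair of chromosome 3, 171000001 to 172000000 with 175000001 to 176000000, had 609 and 653 contacts against 329 and 318 (log2 fold change -0.42, edgeR adjusted p = 0.000147), and it did not pass without Lenti-GFP replicate 1 or Lenti-AS replicate 1 (edgeR adjusted p = 0.0876 and 0.0519).

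Other contacts of these bins moved in the same direction. The mean trans contacts of the stretch, per 1000000 trans contacts, differed by -5.45% on chromosome 5, -5.94% on chromosome 3 and -5.87% on chromosome 12, and the mean cis contacts at all distances by -5.29%, -12.6% and -8.01%. With the long-range contacts of both bins in the offset, the leading pairs of chromosomes 5 and 3 had log2 fold changes of -0.013 and -0.012, and that of chromosome 12 had 0.10, the opposite sign (edgeR adjusted p = 0.993, 0.994 and 0.694). Under that offset 18 pairs of the whole table were called, 7 higher and 11 lower. The part of these bin totals in the result was not tested further.

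The largest changes that passed were in pairs with few contacts. The 3 largest decreases joined 137000001 and 236000001 on chromosome 1, with 39, 49, 11 and 10 contacts in the order of the libraries (log2 fold change -1.55, edgeR adjusted p = 0.00546), 6000001 and 128000001 on chromosome 6, with 40, 38, 9 and 11 (-1.45, edgeR adjusted p = 0.0302), and 17000001 and 81000001 on chromosome 10, with 37, 57, 16 and 11 (-1.24, edgeR adjusted p = 0.0450). Each coordinate is the start of a 1 Mb bin. The 3 largest increases were 58000001 with 75000001 on chromosome 4, with 11, 9, 22 and 21 contacts (log2 fold change 1.64, edgeR adjusted p = 0.0254), 166000001 with 191000001 on chromosome 2, with 77, 92, 91 and 94 (0.68, edgeR adjusted p = 0.0254), and the first Mb of chromosome 1 with 36000001, with 87, 113, 109 and 101 (0.63, edgeR adjusted p = 0.0335). Counts are as deposited, so that equal counts in the shallower Lenti-AS libraries stand for more contacts at equal depth. The pair of the first Mb of chromosome 1 contains the 100 kb pair at 200001 and 36300001 described next, with 7, 5, 40 and 34 of these contacts. With the long-range contacts of both bins in the offset the pair of the first Mb of chromosome 1 was at an edgeR adjusted p of 0.0489 and the other 5 did not pass (0.055 to 0.492), and without the filter on counts the chromosome 10 pair did not (0.0525). None of the 6 pairs passed with DESeq2, and when 1 library was left out the only call was that of chromosome 6 without Lenti-GFP replicate 2 (edgeR adjusted p = 0.0445). For the pair with the first Mb of chromosome 1 the adjusted p was then between 0.0841 and 0.394 in edgeR.

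At the resolution of 100 kb, 271558 pairs over 2 Mb had a mean count of at least 5, and edgeR called 5 of them (0.00184%), 3 higher (0.0011%) and 2 lower (0.000736%) in Lenti-AS. DESeq2 called 1 of them, and without either Lenti-AS library edgeR called 0, with 10595 and 10440 pairs at an unadjusted p under 0.05. Without Lenti-GFP replicate 1 there were 2, both on chromosome 1.

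The pair 200001 to 300000 with 36300001 to 36400000 on chromosome 1 had the largest change. It held 7 and 5 contacts in Lenti-GFP and 40 and 34 in Lenti-AS, or 8.81 and 5.36 against 66.6 and 59.5 times the expected (log2 fold change 3.15, edgeR adjusted p = 1.08e-12), and it was the pair that DESeq2 also called (adjusted p = 0.00707). The bin at 200001 was under the minimum for usable bins, with 0.117 of the median cis contacts, and 70.8% of its contacts were trans.

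Between 400001 and 5500001 on chromosome 12, each the start of a 100 kb bin, there were 112 and 144 contacts in Lenti-GFP and 138 and 151 in Lenti-AS, or 107 ± 6.72 and 178 ± 18.7 scaled (SD over 2 libraries, log2 fold change 0.72, edgeR adjusted p = 0.00246). The bin at 400001 had 0.479 of the median cis contacts, and 53.3% of its contacts were trans. Its contacts with its weaker neighbour were 0.00662 of the expected for neighbouring bins. Between 500001 and 22300001 on chromosome 7 there were 1719 and 2194 against 1673 and 1645, or 1648 and 2032 scaled on average (n = 2, log2 fold change 0.30, edgeR adjusted p = 0.00978). In both pairs the Lenti-AS libraries lay above the Lenti-GFP libraries after scaling. The chromosome 7 bins also had higher totals in Lenti-AS, by 21.5% and 19.0% for long-range contacts and by 7.69% and 10.0% for trans contacts. The long-range totals hold the pair's own contacts, 1719 of 4150 and of 4082 in Lenti-GFP replicate 1. An offset with the long-range contacts of both bins therefore takes out part of the pair's own change. Under it the fold change of that pair was -0.22 (edgeR adjusted p = 5.70e-05), the opposite sign, from which no conclusion is drawn. With the replicate number as a block its call was lost (edgeR adjusted p = 0.372), as it was without Lenti-GFP replicate 1 (edgeR adjusted p = 0.993).

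The lower pairs were 53600001 with 55700001 on chromosome 1, with 496 and 565 contacts in Lenti-GFP and 270 and 232 in Lenti-AS (log2 fold change -0.55, edgeR adjusted p = 8.88e-05), and 168700001 with 170900001 on chromosome 5, with 39 and 43 against 7 and 10 (log2 fold change -1.73, edgeR adjusted p = 0.0253). The chromosome 5 pair lies in the far stretch described above, and the long-range totals of its bins differed by -24.3% and -25.2%. The bin at 55700001 on chromosome 1 had 6.01 times the median cis contacts and was in 301 of the pairs of outstanding contact described below, the most of any bin. With both bins in the offset neither of these lower pairs passed (edgeR adjusted p = 0.9995 for each), while those at 400001 on chromosome 12 and 200001 on chromosome 1 did (edgeR adjusted p = 2.33e-10 for each).

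Pairs of outstanding contact were those with an observed over expected of 5 or more at the same distance and 50 or more contacts summed over the 4 libraries. There were 19396 (0.0956% of the long-range pairs), and they held 3431932 contacts (6.38%). They were chosen on their summed contacts, so their level is a description. Their median observed over expected was 10.8, and 2094 had 50 or more, all of which were above 5 in each of the 4 libraries. In all, 15408 (79.4%) were above 5 in every library. The expected takes account of distance alone. With the contacts of both bins in it as well, 9178 of the 19396 (47.3%) kept a ratio of 5 or more. At the thresholds the choice was not sharp: 366 pairs had an observed over expected from 5 to 5.1 and 347 further pairs with 50 or more contacts had from 4.9 to 5, and 298 pairs of 5 or more held exactly 50 contacts where 328 held 49.

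Short distances held most of these pairs and long distances the most extreme. The class from 2 to 5 Mb held 9804 (50.5%), with a median observed over expected of 7.41, and they carried 17.6% of the contacts of that class. Beyond 100 Mb there were 401, with a median of 182, and they carried 4.61% of the contacts there. A pair beyond 100 Mb needs a far larger ratio to reach 50 contacts, so the medians partly follow from the rule. Chromosome 2 held 2863 and chromosome 1 held 2675, of which 502 and 444 were over 50 Mb apart, while chromosomes 10 and 11 held 0 over 20 Mb apart. Per possible pair chromosome 19 was richest, with 0.583% of its pairs and 18.7% of its long-range contacts.

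**Figure D4:**
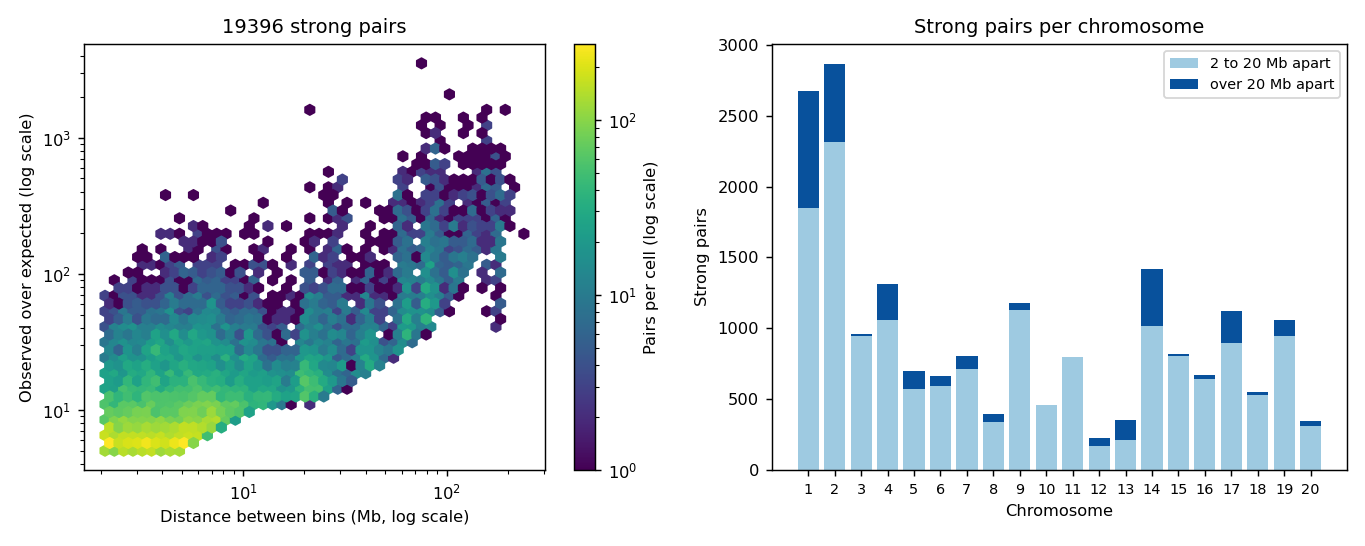
Left, observed over expected (log scale) against distance in Mb (log scale) for the 19396 pairs with a ratio of 5 or more and 50 or more contacts, coloured by the number of pairs per cell of the plot. The slanted lower edge is set by the minimum of 50 contacts. Right, number of these pairs per chromosome, split at 20 Mb, with chromosomes 1 and 2 highest.

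Touching pairs formed 2837 patches, of which 1268 were single pairs and 404 held 10 or more pairs. The largest, on chromosome 3, joined 28500001 to 30600000 with 33800001 to 35100000 in 236 pairs. Its peak had 326, 358, 241 and 287 contacts and was 69.9, 65.8, 68.0 and 84.6 times the expected. The next joined 82500001 to 84600000 with 89300001 to 90800000 on chromosome 9 (235 pairs, peak 189 times the expected) and 92300001 to 94200000 with 97300001 to 98700000 on chromosome 14 (230 pairs, peak 78.0). All pairs of these 3 patches were between 3.2 and 8 Mb apart.

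Of the 7 other patches among the 10 largest, 5 spanned at most 11 Mb: 58000001 with 61500001 (215 pairs) and 4100001 with 12600001 (178 pairs) on chromosome 11, 58900001 with 64200001 on chromosome 2 (188 pairs), 23400001 with 29400001 on chromosome 19 (185 pairs) and 140900001 with 151500001 on chromosome 4 (154 pairs), each given by the starts of its blocks. Their peaks were 52.5, 290.2, 123, 105 and 198 times the expected. The remaining 2 lay farther apart. The first 1.5 Mb of chromosome 6 contacted 19100001 to 21400000 in 175 pairs with a peak of 45.3, and 38000001 to 42400000 contacted 62500001 to 63000000 on chromosome 14 in 156 pairs with a peak of 185. In none of the 10 patches did a 100 kb pair pass the test between the groups (edgeR adjusted p of the peaks from 0.816 to 0.9994). Some 1 Mb pairs that overlap a patch were called higher in Lenti-AS. They were 30000001 with 34000001 on chromosome 3 (log2 fold change 0.19, edgeR adjusted p = 0.000173) and 93000001 with 97000001 on chromosome 14 (0.15, edgeR adjusted p = 0.0396). The third was 59000001 with 64000001 on chromosome 2 (0.16, edgeR adjusted p = 0.0450). DESeq2 called none of these.

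The highest ratio of all, 3505 over the 4 libraries, joined 117100001 to 117200000 with 194900001 to 195000000 on chromosome 1, 77.8 Mb apart. It held 1616 and 1962 contacts in Lenti-GFP and 1505 and 1188 in Lenti-AS, and 92.4% of them fell in 1 pair of 10 kb bins, 117140001 to 117150000 with 194910001 to 194920000. Contacts of the bin at 117100001 with its weaker neighbour were 0.00221 of the expected for neighbouring bins. The difference between the groups did not pass (log2 fold change 0.09, edgeR adjusted p = 0.947).

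On chromosome 7 the bins starting at 500001, 22300001 and 99200001 contacted each other at 1639, 2121 and 1280 times the expected, over 21.8, 98.7 and 76.9 Mb. The pair at 98.7 Mb held 546 and 745 contacts in Lenti-GFP and 634 and 602 in Lenti-AS (log2 fold change 0.32, edgeR adjusted p = 0.306). The pair at 76.9 Mb held 362 and 510 against 405 and 402 (log2 fold change 0.36, edgeR adjusted p = 0.306). Trans contacts made up 61.1%, 62.6% and 67.1% of the contacts of the 3 bins. The pairs of 1 Mb bins that hold these 3 cis pairs were called higher in Lenti-AS. Between the starts 1 and 99000001 the log2 fold change was 0.31 (edgeR adjusted p = 5.45e-07). Between 22000001 and 99000001 it was 0.28 (edgeR adjusted p = 0.000247), and between 1 and 22000001 it was 0.23 (edgeR adjusted p = 1.38e-05). DESeq2 called no pair of 1 Mb bins. On chromosome 2 the bin at 400001 contacted 156100001 and 197200001 at 1627 and 1625 times the expected, and its trans share was 60.2%. That last pair had 68, 108, 88 and 79 contacts in the order of the libraries (log2 fold change 0.62, edgeR adjusted p = 0.614).

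Bins of these pairs were set beside the other usable bins. Of 7692 usable bins in at least 1 such pair, 26.3% had a positive first eigenvector of the trans contacts, against 54.1% of the 16793 usable bins in none. The median trans share of a bin was 11.58% against 11.53%, and its 90th percentile was 17.5% against 15.9%, though this share is taken of all contacts of the bin, the chosen cis contacts included. The contact with the weaker neighbouring bin was under 0.25 of the expected in 11.8% against 7.20% of bins, and in 25.2% of the 1272 bins in a pair at 50 or more times the expected. These shares are given as a description. The part of the order of bins in the assembly in these contacts was not tested.

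The pairs of the set were then compared between the groups. The pairs of outstanding contact held 6.28% and 6.35% of long-range contacts in Lenti-GFP and 6.47% and 6.47% in Lenti-AS, higher in both Lenti-AS libraries (difference 0.157 percentage points, n = 2, exact permutation p = 0.333). All 19396 were tested in the 100 kb table, and 4 passed (0.0206%), 3 higher and 1 lower. The share over all pairs tested was 0.00184%, but these hold fewer contacts, and the pair at 200001 on chromosome 1 reached 50 contacts only through its 40 and 34 in Lenti-AS, so the shares are not set against each other. At an unadjusted p under 0.05 there were 1447 (7.46%), 843 higher and 604 lower. Over all pairs tested the share was 5.14%. In the fit of the 68734 pairs with a mean count of 10 or more, 4251 were under 0.05. Contacts per pair differ between these sets, so these shares are not set against each other either. The median log2 fold change of the pairs of outstanding contact was 0.013. It was -0.021 over all pairs and -0.0016 over those with a mean count of 10 or more. When the pairs were chosen in each group on its own, with its counts multiplied to the same depth, Lenti-GFP gave 19837 and Lenti-AS 19911, and the 16222 shared pairs were 81.8% and 81.5% of them. Multiplying does not equal out counting error, which was larger in the shallower Lenti-AS, and no shares between libraries of 1 group were computed to set beside these.

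Compartment-like preference was measured with bin signs from trans contacts, which the choice of cis pairs does not use. The trans contacts of the 4 libraries were summed for this, 11079247 and 13019054 in Lenti-GFP and 8945528 and 8387819 in Lenti-AS. The signs and eigenvector values thus lean on the deeper Lenti-GFP, and signs from each group alone were not tried. The first eigenvector of the trans contacts of 4943 bins of 500 kb was positive in 2224 and negative in 2719, and the median positive bin had 16664 trans contacts against 14815. Because no genome sequence or annotation of rn6 was at hand, the signs were not named as active or inactive chromatin. In every distance class pairs of like sign were in excess of pairs of unlike sign, with a log2 ratio in Lenti-GFP of 1.03 ± 0.011 at 2 to 5 Mb, 1.36 ± 0.00633 at 50 to 100 Mb and 1.17 ± 0.0044 beyond 100 Mb (SD, n = 2).

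The makeup of that excess changed with distance. In Lenti-GFP, pairs of positive bins were at 0.906 ± 0.0175 of the expected at 2 to 5 Mb and at 1.77 ± 0.0367 beyond 100 Mb. Pairs of negative bins were at 1.501 ± 0.0168 and 1.17 ± 0.0244 in the same classes (SD, n = 2). Negative pairs were above positive pairs in every class up to 100 Mb, at 1.47 against 1.38 in the class from 50 to 100 Mb. Only beyond 100 Mb were positive pairs above negative pairs.

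The groups were apart in both kinds of like pairs in all 6 classes with signs of all bins. Beyond 100 Mb pairs of positive bins were at 1.80 and 1.75 in Lenti-GFP and at 1.67 in both Lenti-AS libraries (difference -0.103, exact permutation p = 0.333, n = 2), and at 20 to 50 Mb they were at 1.18 and 1.14 against 1.103 and 1.09 (difference -0.0641, exact permutation p = 0.333). Pairs of negative bins at 20 to 50 Mb were at 1.58 and 1.61 in Lenti-GFP and at 1.63 and 1.64 in Lenti-AS (difference 0.0408, exact permutation p = 0.333). Positive pairs were thus lower and negative pairs higher in both Lenti-AS libraries. Unlike pairs at 20 to 50 Mb were at 0.576 and 0.571 in Lenti-GFP and at 0.574 and 0.570 in Lenti-AS. These ratios come from raw counts with an expected from distance alone. The part of the contact totals of positive and negative bins in these differences was not tested. At 2 to 5 Mb positive pairs were at 0.919 and 0.894 against 0.882 and 0.871, and there the Lenti-GFP libraries lay farther from each other than the nearest libraries of the groups did. The same held for negative pairs in all 6 classes.

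**Figure D5:**
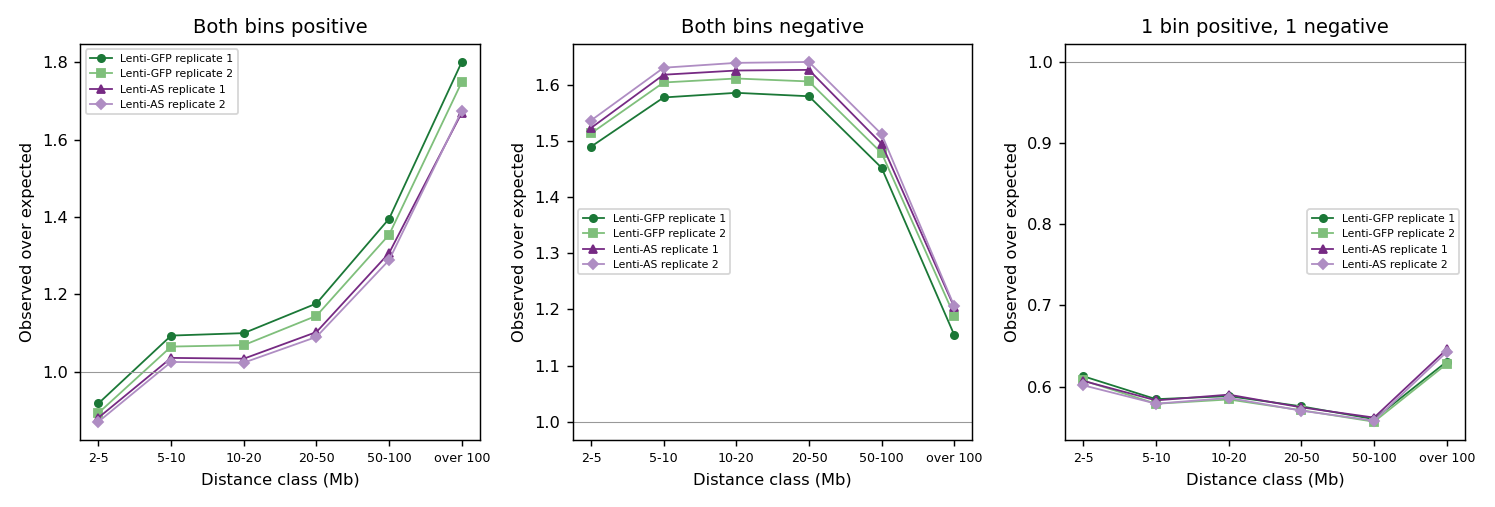
Observed over expected at the same distance for pairs of 100 kb bins that are both positive, both negative or of unlike sign in the trans eigenvector, by distance class in Mb, for the 4 libraries. Beyond 100 Mb positive pairs rise to between 1.67 and 1.80 while negative pairs drop to between 1.15 and 1.21, and the Lenti-AS libraries lie below Lenti-GFP in the left panel and above it in the middle panel.

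Up to 100 Mb the log2 ratio of like to unlike pairs differed by between -0.00931 and 0.0176. Beyond 100 Mb it was 1.17 and 1.17 in Lenti-GFP and 1.11 and 1.12 in Lenti-AS (difference -0.0558, exact permutation p = 0.333, n = 2). With only the 20% of bins of highest and the 20% of lowest eigenvector value, the ratio was higher in both Lenti-GFP libraries in all 6 classes, while negative pairs at 2 to 5 Mb overlapped, at 1.78 and 1.84 in Lenti-GFP against 1.83 and 1.87 in Lenti-AS (exact permutation p = 0.667, n = 2). Beyond 100 Mb it was 3.80 and 3.81 in Lenti-GFP and 3.48 and 3.53 in Lenti-AS, and unlike pairs were at 0.182 and 0.179 of the expected against 0.215 and 0.211. In that class the ratio of cis to trans contacts per pair was 2.95 and 2.95 in Lenti-GFP and 2.86 and 2.88 in Lenti-AS. Its part in the result was not tested.

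The same split was made of the pairs of 1 Mb bins. At an unadjusted edgeR p under 0.05, 7.20% of the 32177 pairs of positive bins were lower and 1.33% higher in Lenti-AS, against 4.1% lower and 3.78% higher of all pairs tested. Of the 53759 pairs of negative bins 2.83% were lower and 5.72% higher. The median log2 fold change was -0.07 in positive pairs, 0.037 in negative pairs and 0.003 in unlike pairs. Pairs of negative bins were 35.4% of the pairs tested, unlike pairs 41.03% and pairs of positive bins 21.2%. Of the 73 pairs called lower after adjustment 38 joined negative bins, 25 unlike bins and 10 positive bins, and of the 27 called higher 15 joined negative bins, 7 unlike bins and 3 positive bins, while 2 held a bin without a sign. Pairs of negative bins thus held the most calls in both directions. At 2 to 5 Mb, which held 41 of the lower and 16 of the higher calls, negative pairs also held more contacts. In Lenti-GFP they were at 1.501 of the expected there, against 0.906 for positive and 0.610 for unlike pairs. No share of calls at like contact counts was computed.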

How the data were processed

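The authors deposited, per library, raw, unnormalized counts of Hi-C contacts between 10 kb bins. The submitters' processing notes name HiC-Pro, without a version, and the build rn6. The bin tables deposited beside them give bin positions (other values). Balanced matrices merged per group were not used. Counts were summed to 100 kb, and positions are rn6, counted from 1. Libraries held 70488877 to 110770015 contacts. A bin was usable with 0.25 or more of the median bin's cis contacts (24485 of 26198 bins). Expected is the mean over usable pairs at the same distance. Counts were tested with edgeR 4.0.16 (quasi-likelihood, Benjamini-Hochberg), with offsets of each library's contacts at the same distance or, for chromosome and class counts, of the chromosome's cis contacts. Dispersions were kept at 0.00011 or more, because edgeR's deviance failed below it at high counts. Pairs needed a mean count of 10 (1 Mb bins) or 5 (100 kb bins). Slopes were tested with limma 3.58.1 and single values by exact permutation. DESeq2 1.42.0, TMM, other offsets, filters and thresholds, a replicate block and leaving out each library were alternatives.

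In data simulated with 200 changed pairs, edgeR recovered 60% of 2-fold and 91.5% of 4-fold changes among 151853 pairs of 1 Mb bins, and 2.5% and 40% among 271558 pairs of 100 kb bins. Of 1.5-fold changes it recovered 15.5% and 0.5%, and 6.06% of its calls among 1 Mb pairs were then false. The called 1 Mb pairs had a median log2 fold change of -0.37 where lower and 0.23 where higher, smaller than any change simulated for pairs. Among 113 chromosome and class counts edgeR recovered 15% of 20 changes of 1.02-fold and all of 1.1-fold. Pairs named in the text are the 3 largest increases and decreases past the threshold with groups apart, the 3 chromosome and class counts of lowest p, the 2 steepest and shallowest slopes and the 2 largest slope differences, the 10 patches with most pairs and the 5 highest ratios. Others were chosen after their values were seen. Members and lists were chosen with earlier results of these data known. Genes and sequences are not named, since no genome or annotation of rn6 was used here.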

Additional observations from a re-analysis of the deposited data

How the results depend on the processing

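Of the alternative values of the class differences, counts of calls, mean slope, strong pairs and log2 preference, 110 kept their sign or, for counts, stayed within 1.5 times, 21 counts moved by more than that and 10 values changed sign, in comparisons whose exact p cannot go below 0.333. A kept sign does not mean a like size. Leaving out 1 library gave class differences from -2.51 to -1.46% (2 to 5 Mb), -2.97 to -2.16% (5 to 10), -3.19 to -2.13% (10 to 20), -3.59 to -2.62% (20 to 50), -2.92 to -2.31% (50 to 100) and -0.97 to -0.26% (over 100). Per cis contacts over 2 Mb the classes at 2 to 5 and over 100 Mb were 0.54% and 1.95%, while those at 5 to 10, 10 to 20 and 50 to 100 Mb were -0.051%, -0.15% and -0.10%. Per cis contacts over 20 kb the last class was 0.639%. Chromosome and class calls ran from 43 to 100 without 1 library and were 44 with TMM. Calls of 1 Mb pairs ran from 19 to 94, and were 18 with both bins in the offset and 0 with DESeq2. Calls of 100 kb pairs ran from 0 to 7, and were 1 at a mean count of 2 or more, 8 with both bins in the offset and 1 with DESeq2. Calls of slopes ran from 4 to 9, and were 6 over 5 to 50 Mb. Strong pairs numbered 19295 to 19573 without 1 library, 10093 with the contacts of both bins in the expected, 10443 at a ratio of 10 or more and 10877 at 100 or more contacts.

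The replicate numbers of the titles were not used to pair the libraries in the main tests, since nothing says what a number shares. Deviations of same-numbered libraries correlated at -0.018, 0.0045 and 0.0026 over counts by class, 1 Mb pairs and 100 kb pairs and 0.484 over slopes. Whether a number marks a shared batch is not known. With a replicate block the calls were 105, 175, 4 and 8 in that order, against 98, 100, 5 and 10 without it. The block was also read for the named pairs, the counts of chromosomes 12, 10 and 17 and the slopes of chromosomes 10, 12, 17, 19 and 20, and among these it ended the calls of the chromosome 7 pair and the chromosome 20 slope.

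The difference between the groups in the log2 ratio of like to unlike pairs, Lenti-AS minus Lenti-GFP, ranged from 0.0093 to 0.026 (2 to 5 Mb), -0.0079 to 0.01024 (5 to 10), -0.0145 to -0.00054 (10 to 20), -0.0065 to 0.0088 (20 to 50), -0.016 to -0.0026 (50 to 100) and -0.061 to -0.051 (over 100) without 1 library. With the outer 20% of bins on either side this difference was -0.044, -0.093 and -0.11 in the classes at 2 to 5, 5 to 10 and 20 to 50 Mb, with the sign turned. The difference in unlike pairs turned to 0.00427, 0.0119 and 0.0116 in these classes with that choice. Without 1 library it ran from -0.00351 to 0.00215 (5 to 10 Mb, with 0.00215 and 0.00134 of turned sign), -0.000202 to 0.0039 (10 to 20 Mb, -0.000202 and -0.000181), -0.00331 to 0.00152 (20 to 50 Mb, 0.00152 and 0.00116) and -0.000265 to 0.0035 (50 to 100 Mb, -0.000265). The leading chromosome 12 pair turned to 0.10 and the chromosome 7 pair to -0.22 with both bins in the offset, which includes the contacts of the pair itself. The slope difference of chromosome 19, which did not pass, turned to 0.00198 over 5 to 50 Mb, 0.000612 with weighted windows and ran from -0.00539 to 4.84e-05 without 1 library. The cause of these changes was not tested.

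Depth limits single pairs: beyond 100 Mb the median 1 Mb pair that passed the filter held 15.5 contacts per library, and 57.2% of 100 kb pairs held any contact in the 4 libraries. Removing strong pairs and leaving out libraries for their number were added after seeing the data.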
